A study of Rattus norvegicus with 35 samples.

Results

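The basal and myoepithelial genes of the mammary gland were followed over 7 groups of young rats: Krt5, Krt14, Krt17, Tp63, Acta2, Myh11, Cnn1, Mylk, Oxtr and Jag2. Members were found by the gene name printed on the array, with older symbols accepted, which gave 13 of 41012 probes and 9 of the 10 genes. Acta2 was not analysed here. Of the 9 genes, 7 passed the filter on dim probes and were tested among 16156 genes, while Krt17 and Cnn1 did not pass and are described only.

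The left abdominal mammary glands came from 35 daughters of Sprague-Dawley dams at postnatal day 21, and their total RNA was read on 1-colour arrays, with 5 animals in each group. The dams of the BPA250+genistein, BPA250+I3C and BPA250 groups were gavaged with bisphenol A (BPA, a plastics monomer that binds oestrogen receptors) at 250 µg/kg/day from gestational day 10 to 21. The dams of the BPA25+genistein, BPA25+I3C and BPA25 groups received 25 µg/kg/day, and the control dams are labelled as negative controls. Genistein, a soy isoflavone, was given in chow at 250 mg/kg (about 5.5 mg/kg/day) and indole-3-carbinol (I3C, a compound of cruciferous vegetables) at 2000 mg/kg (about 45.0 mg/kg/day). No group received genistein or I3C without BPA, so each diet is set against the same BPA dose alone, and the offspring were exposed through the dam. Per the series' design text the offspring came from different litters, and pups that were given a carcinogen are not among these samples.

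The mammary duct is lined by an inner luminal layer and an outer basal layer of myoepithelial cells. Basal cells carry the keratins K5 and K14 under the control of the transcription factor p63, rest on the basement membrane, and hold smooth muscle proteins with which they contract around the alveoli when oxytocin reaches its receptor during suckling. Vascular smooth muscle and pericytes of the fat pad use much of the same contractile set, and the epidermis shares the keratins.

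The probes are shown because every level below rests on a single oligonucleotide. They are the 60-base sequences of the array files, 5′ to 3′. Coordinates are those of the rn3 build in the array files, which give none for the Krt5 probe. The tested probes of Tp63 (chr11:76958245-76958303, minus strand) and Mylk (chr11:67661889-67661948, minus strand) are named without their letters.
Krt5: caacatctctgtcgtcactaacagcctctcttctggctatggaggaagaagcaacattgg
Krt14, chr10:89158824-89159500, minus strand: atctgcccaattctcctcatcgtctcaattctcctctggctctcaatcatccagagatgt
Myh11, chr10:719479-719538, plus strand: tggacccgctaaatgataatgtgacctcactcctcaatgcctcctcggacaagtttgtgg
Oxtr, chr4:148570818-148570877, minus strand: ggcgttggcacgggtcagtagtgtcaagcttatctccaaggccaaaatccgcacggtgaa
Jag2, chr6:137916170-137916216, minus strand: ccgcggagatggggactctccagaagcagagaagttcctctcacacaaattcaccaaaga

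Levels are log2 values of the processed spot signal relative to the 75th percentile of the same array, so 0 is a probe as bright as that percentile. A probe's level is not set against another probe's. The 4 arrays of slide 3, replicates 2 of BPA250, BPA25+genistein, BPA25 and control, stood apart: 93.5% to 96.5% of their probe spots were well above background, against 65.5% to 72.6% on slides 4 and 5 and 32.5% to 50.6% on the other 7 slides. Myh11 and Mylk were well above background on all 35 arrays, Jag2 on 33, Krt5 on 32, Krt14 on 31, Oxtr on 26 and Tp63 on 25. The keratin and p63 probes therefore have array values that lie in the background, and these are drawn as open circles in the plots of array values. In the mammary gland as a whole the defining luminal genes were also measured: 11 of 12 listed luminal genes were tested. Cldn3 was well above background on 35 arrays, Krt18 and Krt19 on 34, Spint2 on 33, and Epcam, Cdh1 and Cldn4 on 30. Others were dimmer: Krt7 and Krt8 reached that level on 24 arrays, Cldn7 on 21, Ehf on 19 and the untested Elf5 on 9. Of 8 listed epidermal markers 1 was tested, Krt1, which was well above background on all 35 arrays, while Ivl was above background on 6 arrays, Dsc1 on 8, Krt77 on 10, Krtdap on 11, Krt10 on 12 and Flg on 13.

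None of the 7 tested genes passed limma's test at a Benjamini-Hochberg adjusted p under 0.05 in any of 11 comparisons between groups or in the F test for any difference among the 7 groups, and the smallest adjusted p was 0.766. The share of all 16156 genes that passed was 0% in 9 of the comparisons, 0.00619% for BPA25+genistein against BPA25, 0.0124% for BPA25+I3C against BPA25 and 0.00619% for the F test. At an unadjusted limma p under 0.05 there were 6 values among the 77 of these genes. For all genes the share under 0.05 ran from 0.99% to 4.73% over the 11 comparisons. The 6 values came from Krt5, Oxtr, Tp63 and Jag2. Those of Krt5 share arrays, as do those of Jag2, so the 6 are not independent. Of the 7 F tests 1 was under 0.05, that of Oxtr (unadjusted p = 0.046 by limma, where 4.04% of all genes were). No gene of the 7 had all 5 arrays of one group above all 5 of the other. For all genes tested that share was 0.446%, 1.1%, 0.291% and 0.73% in BPA250+genistein and BPA250+I3C against BPA250 and in BPA25+genistein and BPA25+I3C against BPA25. It was 0.792%, 1.39%, 0.279%, 0.111%, 0.229% and 0.248% in BPA250+genistein, BPA250+I3C, BPA250, BPA25+genistein, BPA25+I3C and BPA25 against control, and 0.204% in BPA250 against BPA25. The p-values rest on the spread between arrays, which holds differences between slides as well as between animals. The main fit has no slide term and takes the arrays as independent. With slide as a random block the fitted correlation between arrays of a slide was 0.59.

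In the comparisons where no member was under an unadjusted p of 0.05 by limma, the share of all genes that was came to 4.33% for BPA250+I3C against BPA250, 3.63% for BPA250+I3C against control, 0.99% for BPA250 against control, 1.68% for BPA25+genistein against control, 2.01% for BPA25 against control and 1.68% for BPA250 against BPA25.

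Krt5, which encodes keratin 5, the type II keratin of basal cells, lay lowest in the BPA250+genistein glands. RefSeq places the gene at chr7:134724840-134730569 in GRCr8. Its 5 arrays read -3.68, -1.67, -1.65, -2.47 and -0.80 in BPA250+genistein glands, against 0.45, -1.46, 0.40, -1.64 and -1.56 in BPA250 glands. The control glands read 0.21, -1.67, -0.52, -1.01 and -0.90. Replicates 1 and 3 of BPA250 stood near the 75th percentile and its other 3 arrays among the BPA250+genistein values, so the groups overlapped. In whole-gland RNA, fewer cells of a type and less RNA per cell cannot be told apart. The log2 fold change was -1.29 ± 0.60 (SE; 95% interval -2.53 to -0.06; unadjusted p = 0.039 by limma, a level that 4.21% of all genes reached) against BPA250. Set against control it was -1.28 ± 0.60 (unadjusted p = 0.042 by limma; 4.26% of all genes). The 2 comparisons share the BPA250+genistein arrays. Of 11 luminal marker genes 9 were also negative against BPA250, with a median of -0.41 and 0 at an unadjusted p under 0.05. Against control 10 of the 11 were negative, with a median of -0.92 and 3 at an unadjusted p under 0.05, and limma called 0 of them in either comparison. Krt5 was well above background on only 3 of the 5 BPA250+genistein arrays, against all 5 in BPA250 and in control glands. The sizes of these differences therefore rest in part on background values. Leaving out replicate 1 of BPA250+genistein, which was among those below background, gave -0.89 against BPA250 and -0.87 against control. Neither was under an unadjusted limma p of 0.05, and normexp background correction gave -0.39 and -0.23. On the 2 slides that hold both groups the difference between BPA250+genistein and BPA250 was -2.05 on one and 0.75 on the other.

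Among the other groups Krt5 averaged -1.68 ± 0.59 in BPA250+I3C, -1.12 ± 0.96 in BPA25+genistein, -1.16 ± 1.13 in BPA25+I3C, -0.42 ± 1.32 in BPA25 and -0.78 ± 0.69 in control glands (SD, n = 5 each). These means differed by less than the spread within BPA25 alone, whose arrays ran from -1.92 to 1.10. Krt5 was also the gene with the lowest of the 7 fold changes for BPA250+I3C against BPA250, at -0.92 ± 0.60 (SE; limma adjusted p = 0.766). On the 3 slides that hold BPA250+I3C and control arrays its difference was negative on each, from -1.68 to -1.12.

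Krt14, the type I partner with which K5 forms filaments, had group means within 1 log2 unit of each other but the widest spread of the tested genes within groups. Its BPA25 arrays read -0.45, 0.45, 2.28, -3.48 and 1.36, against 0.76, -0.55, -0.13, 0.39 and -0.36 in control glands. Replicate 4 of BPA25 was below background and replicate 3 was the brightest of all 35 arrays, while the control arrays lay between them. The fold change of BPA25 against control had an SE of 0.76 and a 95% interval of -1.55 to 1.56. The arrays are compatible with differences of either sign in that interval, which is not a limit of detection. BPA25+I3C glands read 0.90, -0.07, -1.34, -2.92 and -0.60, also with replicate 4 below background. Krt14 lies at chr10:85638182-85642450 in GRCr8. Its other probe, above background on 4 arrays, all on slide 3, gives no usable check of the first.

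Tp63 encodes p63, the factor that maintains basal epithelial cells. The gene lies at chr11:88343647-88554543 in GRCr8. Its arrays read -0.07, -2.92, -0.53, -3.57 and -1.60 in BPA25+I3C glands, against -0.54, -0.39, -0.21, -3.65 and 0.86 in BPA25 glands. Control glands read 0.44, -1.03, -0.53, -0.62 and -0.53. Replicate 4 of BPA25+I3C and replicate 4 of BPA25 were the 2 lowest values, below background, and replicates 1 and 3 of BPA25+I3C stood among the control arrays. For BPA25+I3C against control the fold change was -1.28 ± 0.61 (SE; unadjusted p = 0.042 by limma, reached by 1.57% of all genes), and for BPA25+I3C against BPA25, where Tp63 had the lowest value of the 7 genes, it was -0.95 ± 0.61. Without replicate 4 of BPA25+I3C the value against control was -0.83, without its replicate 2 it was -0.99, and with normexp background correction it was -0.30. On the 2 slides that hold BPA25+I3C and control arrays the differences were -3.03 and 0.09.

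At the higher BPA dose Tp63 averaged -1.58 ± 1.04 in BPA250+genistein, -1.45 ± 0.50 in BPA250+I3C and -0.59 ± 0.46 in BPA250 glands (SD, n = 5 each). BPA25+genistein glands averaged -0.20 ± 0.49, the highest mean of the 7 groups, and their arrays ran from -0.70 to 0.36. The genistein fold change was -0.99 ± 0.61 at BPA250 and 0.59 ± 0.61 at BPA25. The difference between the 2 effects was -1.58 ± 0.86 (SE; 95% interval -3.34 to 0.18), which limma did not call, and 1.16% of all genes had an unadjusted p under 0.05 for that difference. Without replicate 4 of BPA25 the fold change at BPA25 was -0.13, so its sign rests on that array, and normexp background correction gave -0.08. BPA250+I3C lay below control on each of the 3 slides with both, by -2.12 to -1.26, and the fitted fold change was -0.996 ± 0.61 (SE; limma adjusted p = 0.917). Tp63 was well above background on 2 of the 5 BPA250+I3C arrays and 3 of the 5 BPA250+genistein arrays, and the 3 BPA250+I3C arrays behind the slide differences were not, so the sizes of these differences rest on background values. The other Tp63 probe was above background on 8 arrays and its values correlated at r = -0.23 with those of the tested probe over 35 arrays, so Tp63 here means that 1 probe.

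**Figure D1:**
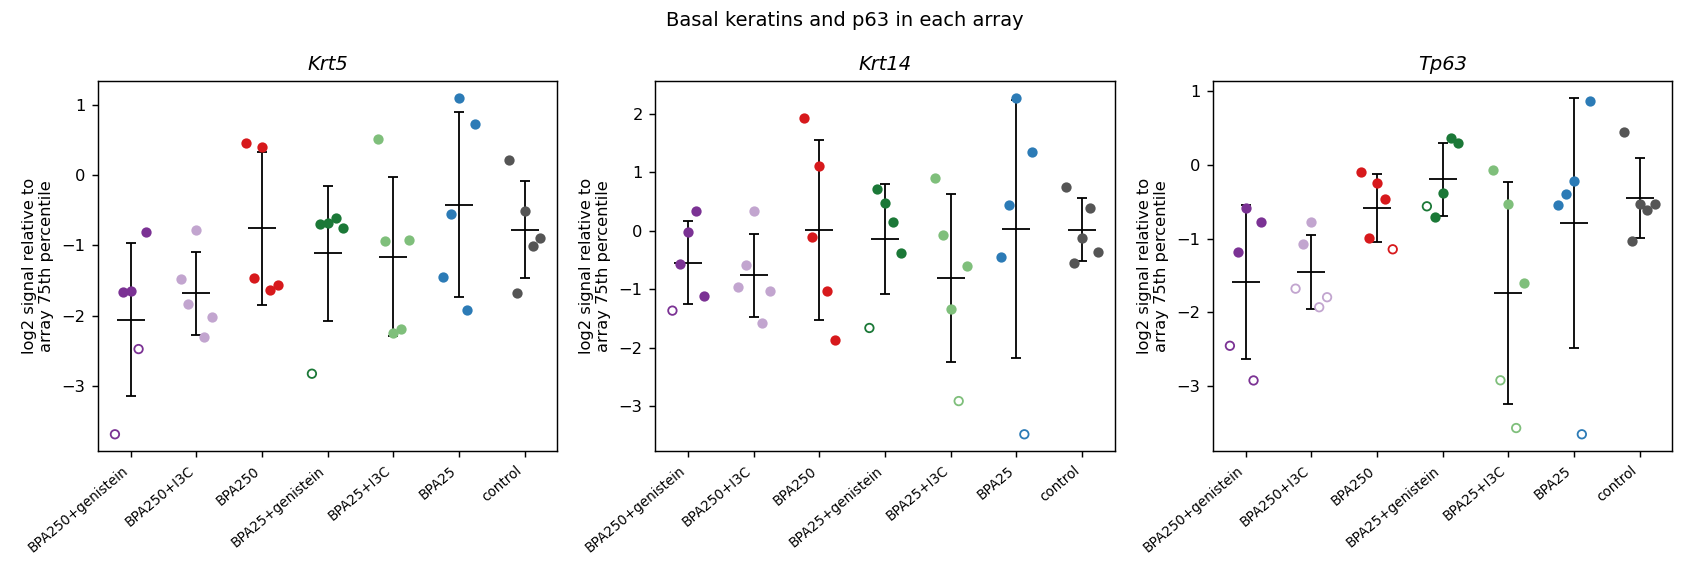
Log2 signal of Krt5, Krt14 and Tp63 relative to the array's 75th percentile, with 1 point for each of 5 animals per group in replicate order, open where the spot was not well above background, and black bars for the mean and SD. Krt5 lies between -3.68 and -0.80 in BPA250+genistein and between -1.64 and 0.45 in BPA250 glands, and the lowest Tp63 points are replicates 4 of BPA25+I3C and BPA25.

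Krt17, a keratin of basal and stressed epithelium, had a signal well above background on 11 of 35 arrays, and on 7 of the 31 outside slide 3, and on 1 or 2 of the 5 arrays in each group. Cnn1, the actin-binding calponin of smooth muscle and myoepithelium, reached that level on 13 arrays, and on 9 without slide 3. Slide membership accounted for 84.3% of the variance of Krt17 and 70.7% of that of Cnn1, against 16.1% and 11.8% for the groups, each taken alone and not corrected for the number of levels. A difference between groups in either gene was not detectable at this signal.

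Myh11, the smooth muscle myosin heavy chain, was bright on every array and did not separate the groups. RefSeq places it at chr10:1250554-1345681 in GRCr8. It read 2.37, 1.27, 2.70, 0.59 and 2.69 in BPA250+genistein glands, against 0.79, 0.85, 2.56, 1.39 and -0.29 in BPA250 glands. Replicate 3 was high in both groups, and replicate 5 was high in the first and the lowest of all arrays in the second. The fold change was 0.86 ± 0.53 (SE; 95% interval -0.22 to 1.94), the highest of the 7 genes in that comparison. A second Myh11 probe (chr10:769508-769567, plus strand), above background on 33 arrays, gave a difference of 0.29 there and -0.46 for BPA25+genistein against BPA25, where the first probe gave 0.47. Over 35 arrays the 2 probes correlated at r = 0.46, and they also gave opposite signs for BPA25+I3C against BPA25 (-0.28 for the second, 0.23 for the first), BPA250+I3C against BPA250 (-0.016 and 0.41), BPA25+genistein against control (-0.07 and 0.51) and BPA250+I3C against control (-0.21 and 0.27). The direction of Myh11 in these comparisons depends on the probe.

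Mylk encodes myosin light chain kinase, which triggers contraction by phosphorylating the myosin light chain. The group means of its tested probe lay closer together than those of the other tested genes. RefSeq places the gene at chr11:79288243-79535450 in GRCr8. BPA250 glands read 0.56, 0.31, 0.72, 0.47 and 0.31, against 1.78, 0.04, 0.52, 0.56 and 0.43 in control glands. Apart from replicate 1 of the control group, the array values of both groups lay between 0.04 and 0.72. The fold change was -0.19 ± 0.36 (SE; 95% interval -0.92 to 0.54), the lowest of the 7 genes for BPA250 against control, and it was 0.09 without that control array. In the other comparisons Mylk fold changes ran from -0.37 to 0.30. A second Mylk probe, above background on 13 of 35 arrays, correlated with the tested probe at r = 0.40. Its difference from control was 0.69 for BPA25+genistein, -0.57 for BPA250+I3C and -0.12 for BPA250. The tested probe gave 0.13, -0.37 and -0.19 there.

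Oxtr, the receptor through which oxytocin makes myoepithelial cells contract, was the member whose detection differed most between groups. The gene lies at chr4:147154374-147171723 in GRCr8. Its arrays read -2.53, 0.02, -2.26, -1.30 and -3.89 in BPA250+genistein glands, against -1.71, 0.08, -0.69, -0.87 and -0.42 in BPA250 glands. Control glands read -1.10, -0.15, -0.84, -0.44 and -2.53. The signal was well above background on 1 of the 5 BPA250+genistein arrays, on all 5 BPA25+genistein arrays and on 4 of 5 in each other group, and replicate 2 of BPA250+genistein stood with the BPA250 arrays. The fold change of BPA250+genistein against BPA250 was -1.27 ± 0.61 (SE; 95% interval -2.52 to -0.03; unadjusted p = 0.044 by limma; 4.21% of all genes). On the 2 slides with both groups the difference was negative on each, at -3.47 and -1.57. With slide as a random block the value was -1.65 (limma adjusted p = 0.0934). With normexp background correction it was -0.36, and without replicate 5 of BPA250+genistein it was -0.80. Since 4 of the 5 BPA250+genistein values are in the background, their size sets no lower limit to the true level.

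BPA25 glands had the highest mean Oxtr level of the 7 groups, 0.08 ± 1.09, against -1.01 ± 0.92 in control glands (SD, n = 5 each). The BPA25 arrays read 0.70, -0.08, 1.08, 0.42 and -1.72. Replicates 1 to 4 lay above every control array, and replicate 5, below background, lay among the lowest. The fold change was 1.09 ± 0.61 (SE; 95% interval -0.15 to 2.34). The difference was positive on each of the 4 slides with both groups, from 0.07 to 1.80. Without replicate 5 of the control group it was 0.71, and without replicate 5 of BPA25 it was 1.54. At BPA250 the fold change against control was 0.29 ± 0.61, and BPA250 against BPA25 gave -0.80 ± 0.61 (SE).

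For the remaining groups Oxtr averaged -0.27 ± 0.98 in BPA250+I3C, -0.32 ± 0.27 in BPA25+genistein and -0.64 ± 1.26 in BPA25+I3C glands (SD, n = 5 each). The BPA25+genistein arrays kept within -0.69 and -0.01, the narrowest range of the 7 groups, and those of BPA25+I3C were pulled down by replicate 4 at -2.87. Oxtr had the highest fold change of the 7 genes for BPA250+I3C against BPA250, 0.45 ± 0.61 (SE), and for BPA25+genistein, BPA25+I3C and BPA250+I3C against control, at 0.69, 0.37 and 0.74. The diet effect on Oxtr at BPA250 minus that at BPA25 was -0.87 ± 0.86 for genistein (SE; 95% interval -2.63 to 0.89) and 1.17 ± 0.86 for I3C (SE; 95% interval -0.59 to 2.93). Both intervals include 0, and 1.16% and 3.16% of all genes had an unadjusted p under 0.05 for these differences.

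Jag2, a Notch ligand of basal cells that signals to neighbouring luminal cells, had its highest mean in BPA25 glands, 0.11 ± 0.66 (SD, n = 5). The gene lies at chr6:137804133-137826738 in GRCr8. BPA25+I3C glands read -0.89, -0.76, -0.55, -1.24 and -0.13, and BPA25+genistein glands -1.15, -0.43, 0.02, -1.50 and -0.04, against 0.12, 0.04, 0.33, -0.88 and 0.94 in BPA25 glands. Replicate 4 of BPA25 was low and overlapped with both diet groups, while its other 4 arrays lay above every array of both diet groups. The fold change was -0.82 ± 0.35 for BPA25+I3C (SE; 95% interval -1.53 to -0.11; unadjusted p = 0.023 by limma; 4.33% of all genes) and -0.73 ± 0.35 for BPA25+genistein (95% interval -1.44 to -0.02; unadjusted p = 0.043; 4.73% of all genes). Both comparisons share the BPA25 arrays. On slides with both groups the differences were -2.18 (1 slide) for I3C and -0.62 and -0.47 for genistein. Without replicate 5 of BPA25 the values were -0.62 for I3C and -0.52 for genistein, neither under an unadjusted p of 0.05, and both were negative under each alternative run. Against control, BPA25 glands differed by 0.51 ± 0.35 (SE).

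At the higher dose Jag2 averaged -0.87 ± 0.57 in BPA250+genistein, -0.84 ± 0.46 in BPA250+I3C and -0.56 ± 0.47 in BPA250 glands, and it averaged -0.40 ± 0.46 in control glands (SD, n = 5 each). These 4 groups overlapped throughout. BPA250 against BPA25 gave -0.67 ± 0.35 (SE; 95% interval -1.38 to 0.04), and the difference was negative on each of the 3 slides with both, from -0.80 to -0.13.

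**Figure D2:**
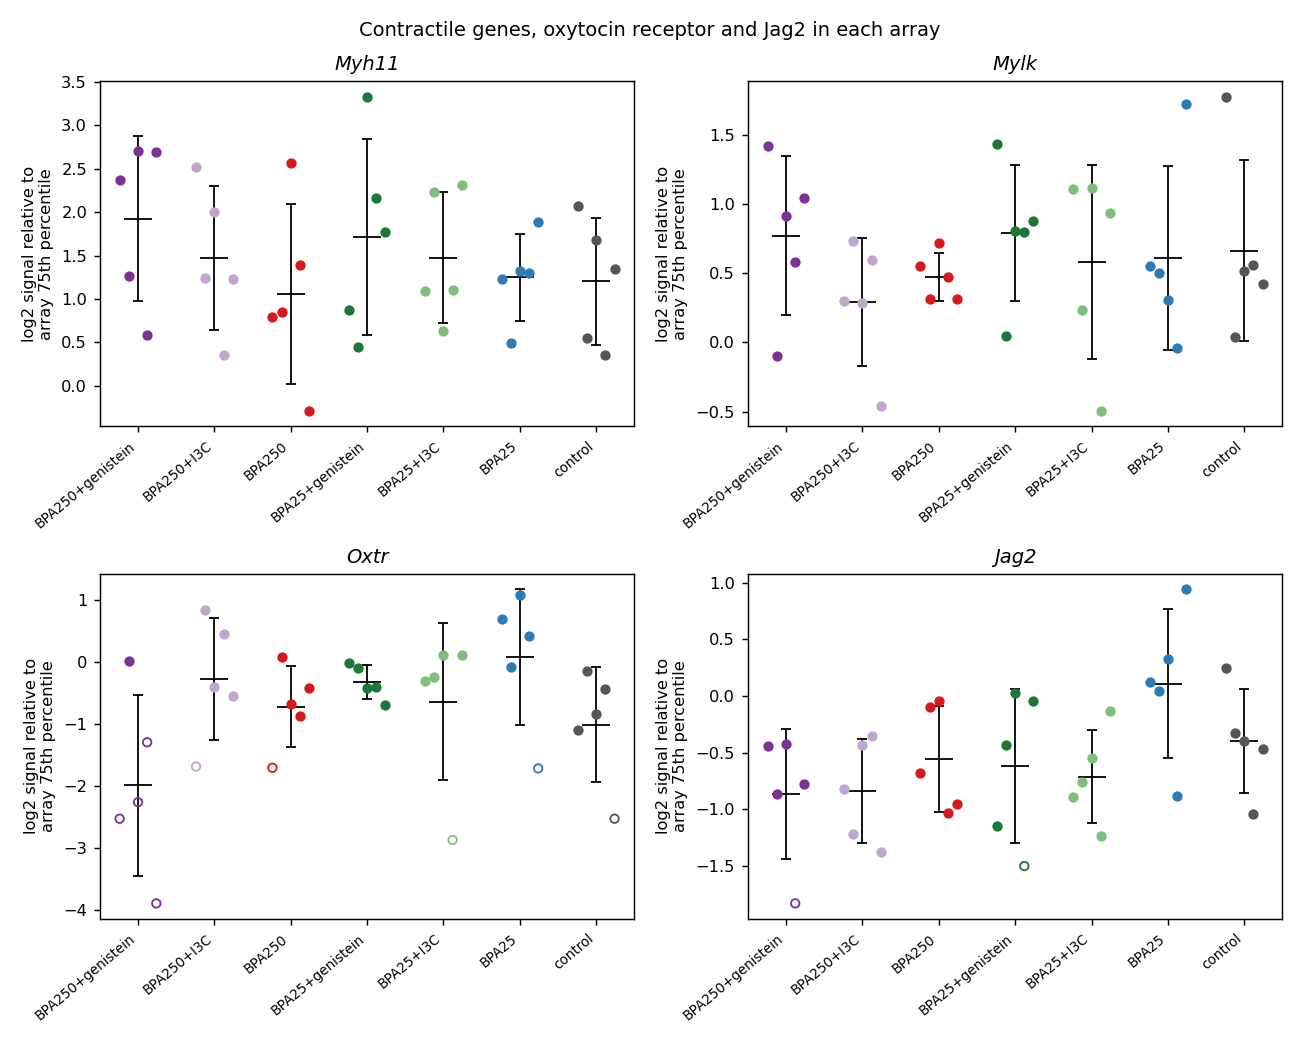
Log2 signal of Myh11, Mylk, Oxtr and Jag2 relative to the array's 75th percentile, with 1 point per animal in replicate order, open where the spot was not well above background, and black bars for the mean and SD of 5 animals. Only 1 of the 5 Oxtr points of BPA250+genistein is filled, and 4 of the 5 BPA25 points of Oxtr lie above every control point.

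The signs of the fold changes were mixed among the 7 genes in each diet comparison. In BPA250+genistein against BPA250 Krt5, Krt14, Tp63, Oxtr and Jag2 had negative values and Myh11 and Mylk positive ones. The median was -0.56 over the 7 genes and 0.07 over all genes tested, of which 58% were positive. For BPA250+I3C against BPA250 the median was -0.28, against 0.24 over all genes with 69.8% positive, and Oxtr and the first Myh11 probe were positive. BPA25+I3C against BPA25 had a median of -0.74, against 0.13 over all genes with 65.7% positive, with the first Myh11 probe positive at 0.23 ± 0.53 (SE) and 6 genes negative. For BPA25+genistein against BPA25 3 genes were positive and the median was -0.17, against 0.03 over all genes with 53.7% positive.

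Against control the medians were negative in 3 of the 4 diet groups. BPA250+genistein and BPA250+I3C each had 2 positive and 5 negative genes, with medians of -0.57 and -0.44, where 55.9% and 69.4% of all genes were positive. Myh11 was the highest in the first, at 0.72 ± 0.53, and Tp63 the lowest in the second. BPA25+I3C had 2 positive and 5 negative genes with a median of -0.32, where 70.6% of all genes were positive, and BPA25+genistein had 4 positive and 3 negative with a median of 0.13, where 55.5% were. Krt5 was the lowest in BPA25+genistein, at -0.34 ± 0.60 (SE), and 0.09 without replicate 1 of that group. Without diet, 2 of 7 genes were positive for BPA250 and 5 of 7 for BPA25, with medians of -0.14 and 0.05, where 41.7% and 52% of all genes were positive. For BPA250 against BPA25 1 gene, Tp63, was positive at 0.20 ± 0.61 (SE), the median was -0.19 and 44.1% of all genes were positive. These comparisons share the control or the BPA25 arrays.

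**Figure D3:**
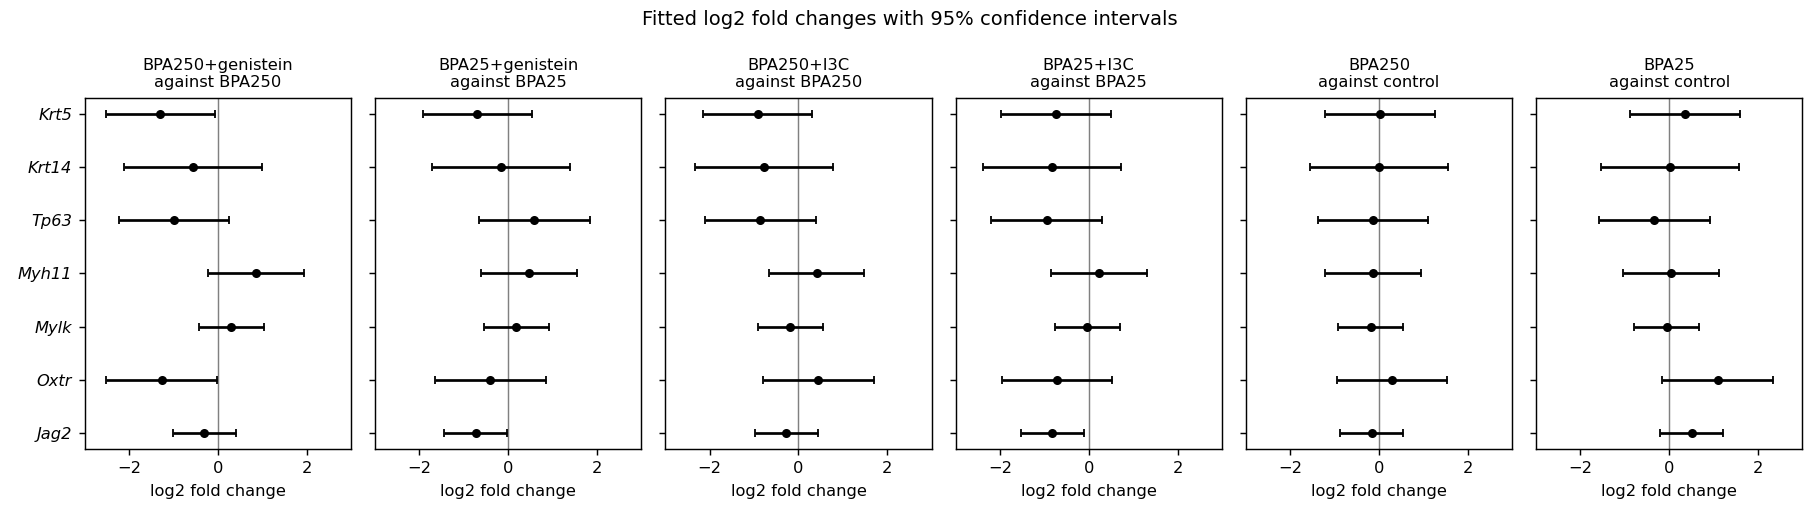
Fitted log2 fold changes (points) and 95% confidence intervals (bars) of the 7 tested genes in 6 comparisons, on a log2 axis. The intervals of Krt5 and Oxtr for BPA250+genistein against BPA250 and of Jag2 for both diets at BPA25 end just below 0, and all others include 0.

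Across arrays the basal keratins and p63 varied together. Over 21 pairs of the 7 genes, with Pearson and Spearman correlations tested by 100000 permutations each and adjusted by Benjamini-Hochberg over the 21 pairs, 7 pairs passed at 0.05. Krt5 and Krt14 had r = 0.77 and rho = 0.80 over 35 arrays (adjusted permutation p = 0.00021 for r and 0.000105 for rho, both from the smallest p of 1e-05 that the permutations can give). The arrays with high Krt5, such as replicate 3 of BPA25, also had high Krt14, as the plot of gene pairs shows. Their r was 0.81 after centring on slide means, which leaves 34 arrays, 0.75 without the 2 arrays with the most extreme Krt5 values and 0.88 over the 30 arrays where both were above background. Krt5 with Tp63 gave r = 0.63 and rho = 0.76, and Krt14 with Tp63 gave r = 0.65 and rho = 0.66. Ranked by slide-centred r over all 16155 other genes, Krt14 was the closest gene to Krt5, and Tp63 came 16th. Seen from Krt14, Krt5 was the 6th closest and Tp63 the 30th.

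Oxtr and the first Myh11 probe had low correlations with the keratins and Tp63. The second Myh11 probe, which correlated with the first at r = 0.46, was not run here, so Myh11 below means the first. Myh11 correlated with Krt5, Krt14 and Tp63 at r = 0.20, 0.14 and 0.11, and Oxtr at 0.06, 0.10 and 0.07, and none of these passed. Mylk with Tp63 had r = 0.52 and rho = 0.49, and 0.62 within slides, but 0.38 without the 2 most extreme Tp63 arrays (adjusted permutation p = 0.0732), so it rests in part on those arrays. Mylk with Jag2 did not pass over all arrays (r = 0.37) and had r = 0.70 within slides (adjusted permutation p = 0.0155). Myh11 with Mylk likewise passed within slides (r = 0.44, adjusted permutation p = 0.0271) and not over all arrays (r = 0.32). Jag2 with Krt5, Krt14 and Tp63 gave r = 0.51, 0.43 and 0.48, which passed over all arrays and did not within slides (0.35, 0.25 and 0.42). Myh11 and Oxtr had the lowest r of the 21 pairs, -0.37 and -0.38 within slides, and did not pass (adjusted permutation p = 0.0697 over all arrays and 0.344 within slides).

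**Figure D4:**
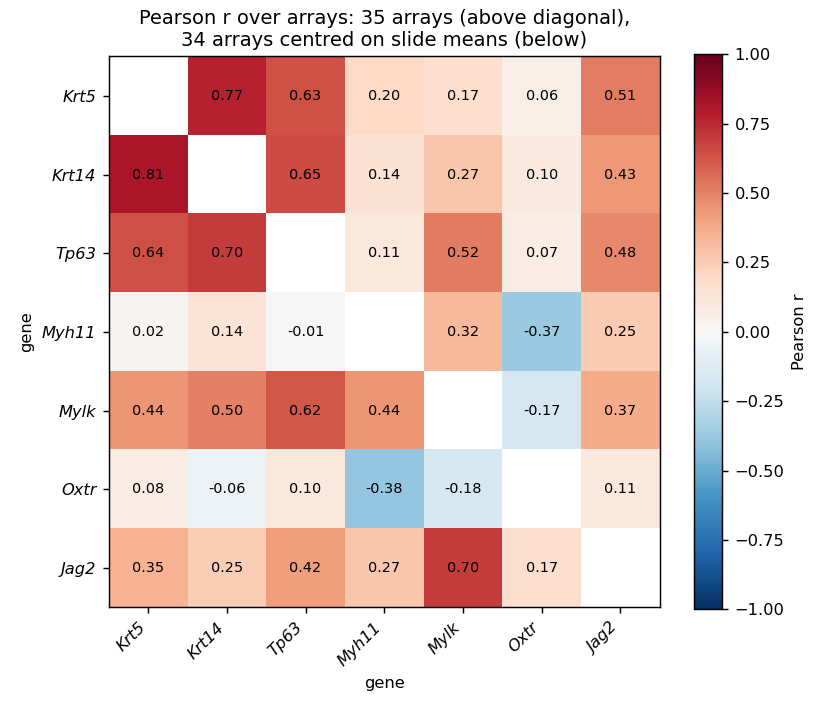
Pearson correlation of each pair of the 7 tested genes (Myh11 by its first probe), over 35 arrays above the diagonal and over 34 arrays after centring on slide means below it. Krt5, Krt14 and Tp63 form a block of 0.63 to 0.81, while Oxtr stands between -0.38 and 0.17 with every other gene.

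Markers of the luminal layer varied with some of the 7 genes, most closely with Tp63. The mean of 11 luminal genes (keratins 7, 8, 18 and 19, Epcam, Cdh1, claudins 3, 4 and 7, Ehf and Spint2) correlated with Tp63 at r = 0.84 and rho = 0.78, and at 0.85 within slides. Values for Krt14 were r = 0.61 and 0.64 within slides, and for Krt5 r = 0.55 and 0.54. The luminal genes, some of them dim on many arrays, were not filtered on background by array. Where the member itself was above background, the untested r was 0.65 for Tp63 (25 arrays), 0.36 for Krt14 (31) and 0.56 for Krt5 (32). These 3 genes passed permutation tests adjusted over 14 relations of the 7 genes with the luminal list and with a list of vascular smooth muscle and pericyte genes, over all arrays and within slides. Jag2 (r = 0.56) and Mylk (r = 0.53) also passed with the luminal list over all arrays. Within slides Jag2 had r = 0.53 and did not pass (adjusted permutation p = 0.132), while Mylk had r = 0.68 and passed (adjusted permutation p = 0.014). Mylk did not pass by Spearman correlation (rho = 0.34, adjusted permutation p = 0.108). Nor did it pass without the 2 arrays with the most extreme Mylk values (r = 0.37, adjusted permutation p = 0.073). Myh11 (r = 0.19) and Oxtr (r = -0.07) did not pass with the luminal list. Over all arrays none of the 7 genes passed with the vascular list by Pearson correlation, where r ran from -0.39 for Jag2 to 0.21 for Mylk, but Jag2 passed by Spearman correlation (rho = -0.48, adjusted permutation p = 0.00972) and, over the 31 arrays outside slide 3, by Pearson correlation (r = -0.43, adjusted permutation p = 0.0366). The luminal list averaged -1.11 ± 1.20 in BPA25+I3C, -0.06 ± 1.11 in BPA25 and 0.39 ± 0.58 in control glands (SD, n = 5 each). Summed over the 11 genes, the signal relative to the 75th percentile ran from 6.66 to 34.7 in BPA25+I3C, from 12.6 to 64.8 in BPA25 and from 13.5 to 56.2 in control glands. For BPA25+I3C against BPA25 9 of 11 luminal genes were negative, with a median of -1.18, 4 at an unadjusted limma p under 0.05 (4.33% of all genes) and 0 after adjustment. Against control, the comparison in which Tp63 stood at -1.28, 10 of 11 were negative, with a median of -1.67, 8 at an unadjusted p under 0.05 (1.57% of all genes) and 0 after adjustment. The arrays lowest in Tp63, replicates 4 of BPA25+I3C and BPA25, were also among the 3 lowest in luminal mean. The part of epithelial content in the Krt5, Krt14 and Tp63 values was not tested.

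**Figure D5:**
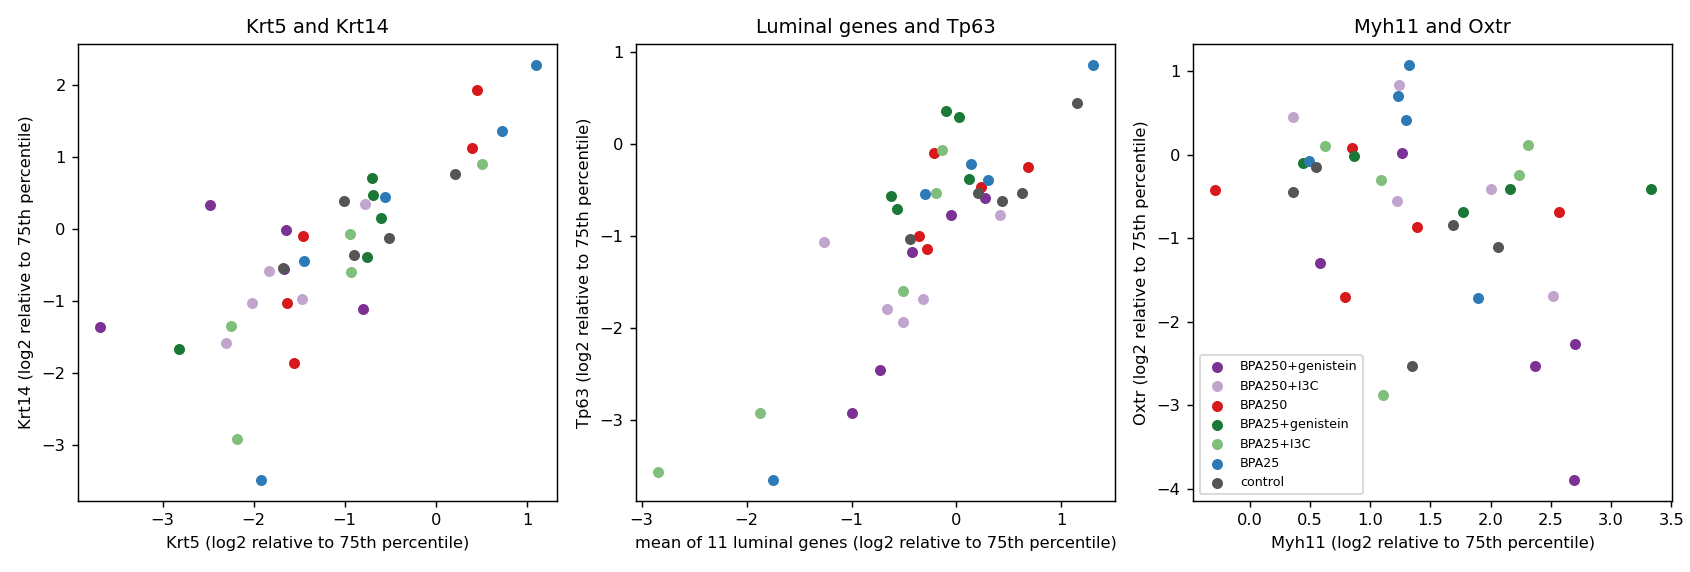
Krt14 against Krt5, Tp63 against the mean of 11 luminal genes, and Oxtr against the first Myh11 probe, each on the log2 scale relative to the array's 75th percentile, with 1 point per array coloured by group. The first 2 panels rise together over the 35 arrays (r = 0.77 and 0.84), and the third does not (r = -0.37).

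The genes most alike to each member over the 34 slide-centred arrays are given without a test. For Krt5 they were Krt14 (r = 0.81), Dsp (desmoplakin, a desmosome protein, 0.81) and Krt15 (a basal keratin, 0.77), and for Krt14 they were Gjb2 (a gap junction connexin, 0.85), Lypd3 (0.83) and Krt33a (a hair keratin, 0.82). Tp63 was nearest to Tfap2b (an AP-2 transcription factor, 0.91), Epcam (the epithelial adhesion molecule, 0.90) and the unnamed transcript TC523154 (0.89). Myh11 was nearest to Nrgn (0.89), Ccrl2 (0.86) and the transcript BQ780678 (0.84), Mylk to Fmod (a collagen-binding proteoglycan, 0.86), Otos (0.84) and LOC682159 (0.80), Oxtr to Grk5 (a kinase of G protein-coupled receptors, 0.79), Hsp90aa1-ps13 (0.79) and Frk (0.79), and Jag2 to Tcof1 (0.74) and Pi4k2a (0.72). No smooth muscle or basement membrane gene of the related lists stood among these names. Without slide centring r was lower for some, such as Otos (0.23), LOC682159 (0.25) and Fmod (0.53) with Mylk and Lypd3 (0.44) with Krt14. It was slightly to clearly higher for Epcam (0.91) with Tp63 and for Ccrl2 (0.866) and BQ780678 (0.91) with Myh11.

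Because Krt5 and Tp63 varied together, the 250 bases before the RefSeq start of Krt5 are shown (chr7:134730570-134730819, minus strand, GRCr8), with capitals for a p53-family half-site at -97 and a GC box at -54 relative to the start.
Krt5 upstream: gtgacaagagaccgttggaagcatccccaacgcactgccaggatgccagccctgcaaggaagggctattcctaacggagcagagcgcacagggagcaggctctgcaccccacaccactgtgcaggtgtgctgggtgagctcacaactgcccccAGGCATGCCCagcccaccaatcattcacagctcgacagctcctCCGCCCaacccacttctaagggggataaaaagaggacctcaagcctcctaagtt
The motifs searched on both strands were the p53-family half-site, the CArG box bound by serum response factor, the AP-1 motif TGANTCA, the TATA box TATAAA and the GC box GGGCGG. Over 33469 upstream windows of 250 bases, 6.64% held the half-site, 501 windows the CArG box, 6.34% the AP-1 motif, 12.9% the TATA box and 30.5% the GC box. The windows of Acta2, Oxtr, Jag2 (2 starts), Krt5, Cnn1, Mylk and Tp63 were searched. The half-site was found in that of Krt5, the AP-1 motif in that of Mylk at -68 and GC boxes in those of Krt5 and Jag2, while the CArG box and the TATA box had 0 matches in these windows. A match is a description of letters in this window.

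Related pathways were read from 5 lists in all 11 comparisons, and 0 of their tested genes passed limma's adjusted test in any of them. Of the smooth muscle contraction list 14 of 18 genes were tested, and for BPA250+genistein against BPA250 12 were positive and 2 negative, with a median of 0.24 against 0.07 for all genes and 0 at an unadjusted p under 0.05. The same list had 2 positive and 12 negative for BPA25+genistein against BPA25, with a median of -0.46 and 2 genes at an unadjusted p under 0.05, where 53.7% of all genes were positive and 4.73% were under 0.05. There 10 of 10 skeletal muscle genes were negative too, with a median of -3.55 and 9 at an unadjusted p under 0.05. For BPA250+genistein against BPA250 9 of those 10 were negative, with a median of -0.66. The part of skeletal muscle RNA in the values of the contraction list was not tested. Of the basal adhesion and basement membrane list 8 of 12 genes were tested. In BPA250+genistein against BPA250 7 of the 8 were positive, with a median of 0.58 and 0 at an unadjusted p under 0.05. Lamb3 (a chain of laminin-332, 0.86 ± 0.43), Itgb4 (the hemidesmosome integrin, 0.88 ± 0.45) and Dst (a plakin that anchors keratin, 0.60 ± 0.34) had the smallest p-values (SE). Krt5, Krt14 and Tp63 had negative values in the same comparison. The adhesion list was not positive there alone. All 8 genes were positive for BPA250+I3C against BPA250 (median 0.20, against 0.24 for all genes) and for BPA25 against control (median 0.12). For BPA25+genistein against BPA25 4 were positive and 4 negative. For BPA250 against control and against BPA25 1 was positive and 7 negative.

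In the list of p63-linked and other basal keratinocyte genes 6 of 12 were tested, and 5 of them were negative both for BPA250+genistein and for BPA250+I3C against BPA250, with medians of -0.26 and -0.45. Krt15 was the lowest of them in the first, at -1.84 ± 0.94 (SE), and for BPA25+I3C against BPA25 it stood at -1.83 ± 0.94, where the list had 2 positive and 4 negative genes and a median of -0.11. Of the Notch list, to whose receptors Jag2 binds, 8 of 14 genes were tested. For BPA25+I3C against BPA25 2 were positive and 6 negative, with a median of -0.13, and for BPA25+genistein against BPA25 4 were positive and 4 negative, with 0 at an unadjusted p under 0.05 in both. Of the oxytocin receptor signalling list 7 of 9 were tested. For BPA250+genistein against BPA250 5 were positive and 2 negative, led by Plcb1 (a phospholipase C downstream of the receptor) at 0.55 ± 0.37 (SE), and the hormone gene Oxt itself was above background on 9 arrays and was not tested.

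Skeletal muscle genes were also measured. Their mean over 10 genes was -1.08 ± 1.59 in BPA250+genistein, -1.79 ± 1.57 in BPA250+I3C, -0.06 ± 1.45 in BPA250, -1.03 ± 2.25 in BPA25+genistein, -0.88 ± 2.31 in BPA25+I3C, 2.78 ± 1.37 in BPA25 and 2.37 ± 0.93 in control glands (SD, n = 5 each). For BPA25+I3C against BPA25 10 of 10 were negative and 1, Tnni1, passed the adjusted test (limma adjusted p = 0.0335). The part of muscle RNA in the values of the basal genes was not tested. Of the adipocyte, fibroblast and endothelium lists 8 of 8 genes each were tested, of the vascular smooth muscle and pericyte list 7 of 10, and 0 of these genes passed limma's adjusted test in any of the 11 comparisons. In BPA250+genistein against BPA250 the 7 vascular genes were all positive, with a median of 0.41 against 0.07 over all genes and 0 at an unadjusted p under 0.05. All 7 were also positive for BPA250+I3C against BPA250 (median 0.33, against 0.24 over all genes). The same held for BPA250+genistein and BPA25+I3C against control (medians 0.23 and 0.42, against 0.05 and 0.14). Their signs were mixed in the remaining comparisons.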

How the data were processed

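Each array was deposited as a spot-level text file, made with Agilent Feature Extraction 9.5.3.1 per the submitters' processing notes, and 150 ng of RNA was labelled per array, per the labels' protocols. Per the file headers, the processed signal is an intensity that the scanner software had background-subtracted and detrended, and the mean signal and local background are uncorrected intensities. Deposited 0 or 1 flags (other) mark saturated, outlying and well above background spots. The authors also deposited a table of log2 values, with column medians of 6.55 to 6.58 and an unstated normalisation, used as an alternative.

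Log2 processed signals were set relative to the 75th percentile of their array, and outlier-flagged spots were set to missing. A probe was kept if well above background on at least 4 of 5 arrays of a group and missing on at most 5 arrays, and the brightest probe stood for a gene. Array names were updated through RefSeq GRCr8 (21259 of 41012 probes matched). Group means of all 35 arrays were fitted with limma 3.58.1 in R 4.3.3 and p-values adjusted by Benjamini-Hochberg over 16156 genes. The outcome of a run on simulated data is not given here, and no conclusion about these arrays is drawn from it. Fold changes carry the standard error of the fit. Named for a comparison were members at an unadjusted p under 0.05 and those with the highest or lowest fold change. The genes most alike to each member were the 3 with the highest slide-centred Pearson correlation, of which 1 is not reported here. Correlations were tested in Python with scipy 1.17.1 by permutation, within slides where centred. Alternatives were other normalisations, background corrections, filters, blocks and left-out arrays. The number of arrays limits the precision. The members and gene lists were chosen with earlier results of these data known, and adipocyte, fibroblast and endothelium lists served only as measured cell type markers.

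Replicate numbers were not taken as pairs, since the labels tie them to no litter or batch and not every pair correlated over 0.1. Among 105 pairs of arrays with the same number the deviations from the group means correlated at -0.39 to 0.94 (mean 0.23), with 69 over 0.1. The mean was -0.04 for pairs with other numbers and 0.37 for pairs on the same slide, with 45 of 48 over 0.1. Since not every pair on the same slide was over 0.1 either, that bar cannot decide whether the number marks a batch. Arrays with the same number mostly share a scan day in the file headers, and slide, scan day and replicate number were each run as a block.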

Additional observations from a re-analysis of the deposited data

Results flagged for a closer look

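In 49 sets of 5 arrays (7 genes in 7 groups) 2 had an array whose gap to its nearest neighbour, divided by the range, was above Dixon's critical value of 0.71. Chance alone flags about 1 in 20 sets. Krt5 in BPA25+genistein replicate 1 read -2.82, with the next array of that group at -0.76. Oxtr in BPA25+I3C replicate 4 read -2.87, with the next at -0.30. Neither spot was well above background.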

How the results depend on the processing

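The number of members called was 0 in each of 355 alternative counts, the replicate block among them, and the smallest adjusted p of a member in any was 0.0581. Of 556 alternative values of 24 named fold changes, 541 kept their sign. Normexp background correction turned Tp63 for BPA25 against control to 0.36, for BPA250 against BPA25 to -0.24 and for BPA25+genistein against BPA25 to -0.078, and Mylk for BPA250 against control to 0.0046. The authors' deposited table gave 0.057 for Tp63 in BPA25 against control and -0.13 in BPA250 against BPA25, where quantile normalisation gave -0.011. The mean of all kept probes gave -0.027 for Myh11 in BPA25+I3C against BPA25. Leaving out 1 array gave ranges across 0 for Tp63 (-0.75 to 0.38 for BPA25 against control, -0.52 to 0.61 for BPA250 against BPA25, -0.13 to 1.00 for BPA25+genistein against BPA25), Mylk (-0.34 to 0.090) and Oxtr (-0.086 to 0.54) for BPA250 against control, Oxtr for BPA25+I3C against control (-0.0067 to 0.93) and Krt5 for BPA25+genistein against control (-0.56 to 0.089). The arrays that turned them were replicate 4 of BPA25 for Tp63, replicates 1 and 5 of control for Mylk and Oxtr, and replicate 1 of BPA25+genistein for Krt5. The cause was not tested. With the replicate number as a block Oxtr for BPA250+genistein against BPA250 stayed at -1.27 (limma adjusted p = 0.536), and the block changed no call of a member. Over all genes, slide as a random block called 79 for BPA250+genistein against BPA250 and 92 for BPA250+I3C against control. Without the block both comparisons called 0. The block called 136 in the F test, against 1 without it, and at most 3 in any other comparison between groups. Without slide 3 the F test called 25. Dim signal limits Tp63, Oxtr and the keratins most. Slide-centred, reduced and slide 3-free correlations were chosen after seeing the data.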
